A study of Mus musculus with 6 samples.

Results

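Flk1+ mesodermal cells without functional Scl were compared with Flk1+ cells of a WT line that were sorted as negative for a reporter of Scl. The comparison used 4 of the 6 arrays of the series, 2 of SclKO and 2 of WT Scl-, chosen by their sample titles. Mouse embryonic stem (ES) cells were kept for 2 days in a pre-differentiation medium, plated at 100000 cells per well, and grown as embryoid bodies, aggregates in which the early germ layers form. On day 4, cells carrying the receptor Flk1 (gene Kdr) were sorted and their RNA was hybridised to Affymetrix arrays. The WT Scl- cells (n = 2) came from a reporter line made in R1 ES cells, of the background (129/Sv x 129/Sv-CP)F1, in which human CD4 is inserted at the Scl locus, and were sorted as Flk1+ and human CD4 negative. The SclKO cells (n = 2) came from a knockout line made in J1 ES cells, of the background 129S4/SvJae, and were sorted on Flk1 alone, although their titles call them Scl-. The WT Scl+ cells (n = 2), the Flk1+ and human CD4 positive fraction of the reporter line, entered the fit to share the estimate of the spread and are given as a reference. Knockout, ES line and sort gate differ together, so their effects cannot be told apart in any difference below. The labels do not say that replicates were separate cultures, so a p-value here reflects the spread between these 6 arrays alone, which may be technical.

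The Scl protein, product of Tal1, belongs to the basic helix-loop-helix family of transcription factors. It binds E-box DNA as a dimer with an E protein such as Tcf3 (E2A) or Tcf12 (HEB), and through Lmo2 and Ldb1 it joins Gata1 or Gata2 in a complex that also reads GATA sites. Embryos without Scl form no blood. The Flk1+ mesoderm that Scl acts in also gives rise to endothelium and heart.

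The rule took every probe set with a single gene symbol, 34958 of 45101, which cover 18194 genes, and the brightest probe set of each gene was used. Levels are natural logs of the deposited values, and differences are SclKO minus WT Scl- in log units. The base of the deposited values is not stated: if RMA log2 values were exponentiated, 1 log unit is 2-fold, and if the values are linear it is 2.72-fold, and folds are given in that order. A gene was tested if it exceeded its array's 40th percentile, called here the limit for dim genes (4.54 to 4.59), on 2 or more of the 6 arrays. That filter passed 12923 genes. Values under that limit give no exact level, and a difference "at the limit" sets them to it. The median level per array lay between 5.2 and 5.25. Across genes, SclKO replicate 1 correlated as closely with WT Scl- replicate 1 (r = 0.9903) as with its own replicate (r = 0.9909), a description over genes that share arrays. WT Scl+ replicate 2 stood apart from the other arrays (r = 0.9673 to 0.9785).

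Tal1 was lowest on the SclKO arrays. Its level was 5.71 and 6.14 in SclKO (replicates 1 and 2, the order used throughout), 6.52 and 7.97 in WT Scl-, and 8.65 and 8.78 in WT Scl+. The groups did not overlap, but the WT Scl- arrays differed from each other: replicate 1 was near the SclKO arrays and replicate 2 near the WT Scl+ arrays. The difference was -1.32 log units (SE 0.45, limma adjusted p = 0.884), or 2.49-fold and 3.73-fold lower under the readings above. It was -2.04 without WT Scl- replicate 1 and -0.59 without WT Scl- replicate 2. Where the probe set lies relative to the deleted part was not given, so the signal left in SclKO does not check the knockout.

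Kdr, the gene of the sorting marker, was high everywhere, at 11.16 and 10.83 in SclKO, 11.14 and 11.23 in WT Scl-, and 11.35 and 10.86 in WT Scl+. The labelled cell type was also checked against other early mesoderm genes. Mesp1, Eomes, Mixl1, Hand1 and Pdgfra each lay above the limit for dim genes on all 4 arrays compared. Their differences were -0.03, 0.42, 0.68, -0.63 and 0.48, none with a limma p under 0.05.

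Few genes differed beyond the spread between arrays. At an adjusted p under 0.05 (limma, two-sided, all 6 arrays in the fit), 1 gene was higher in SclKO (0.00774% of those tested), Cdkn1c, and 0 were lower (0%). Without adjustment, p was under 0.05 for 406 genes higher (3.14%) and 308 lower (2.38%), and such genes are given below as values, not as calls. The groups of 2 did not overlap for 2961 genes on the higher side (22.9%) and 2415 on the lower (18.7%). Over all genes tested, 54% of differences were positive and 46% negative. Among genes without overlap, 69 were at least 1 log unit higher (0.534%) and 44 at least 1 lower (0.34%). After Cdkn1c came Igf2 (limma adjusted p = 0.0565) and Meg3 (0.214), and every other gene tested was at 0.797 or above. Differences below are therefore given with their SE from limma, and those of genes other than Cdkn1c did not pass the adjusted test. The SE and p draw on all 6 arrays. A wide WT Scl+ pair therefore raises them even where the arrays compared lie close together, as for Id2, Pou5f1 and Cldn6. Leaving out any of the 6 arrays in turn moved the unadjusted counts to between 226 and 689 higher and between 129 and 535 lower, and the counts past 1 log unit to between 69 and 131 and between 38 and 130. The latter were 131 higher without WT Scl- replicate 2, 130 lower without WT Scl- replicate 1, and 120 higher and 71 lower without SclKO replicate 1. An exact permutation test of 2 against 2 cannot go below p = 0.33, and the number of arrays limits the precision.

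Of the genes that work with Scl, the closest relatives and the corepressor were low in SclKO, while the E proteins Tcf3 and Tcf12 were level. The list of Scl complex members and related helix-loop-helix factors had 21 tested members, 16 with a positive and 5 with a negative difference. Limma p was under 0.05 for 5 on the higher side and 3 on the lower, beside 3.14% and 2.38% of all genes. The list's median was 0.17, against 0.02 over all genes tested. Lists and their members were chosen with results of these data known.

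Tal2, a close relative of Tal1, was at 4.00 and 3.57 in SclKO, 4.69 and 7.49 in WT Scl- and 8.26 and 8.67 in WT Scl+. Cbfa2t3 (Eto2), a corepressor of the Scl complex, was at 3.86 and 4.85 in SclKO, 5.46 and 7.45 in WT Scl- and 8.54 and 9.71 in WT Scl+. Lyl1, another close relative, was at 4.06 and 4.23 in SclKO, 4.81 and 6.20 in WT Scl- and 7.35 and 7.87 in WT Scl+. All 3 followed the order seen for Tal1: the SclKO arrays were lowest, WT Scl- replicate 1 next, and WT Scl- replicate 2 nearer to the WT Scl+ arrays. The differences were -2.31 for Tal2 (SE 0.83), -2.10 for Cbfa2t3 (SE 0.73) and -1.36 for Lyl1 (SE 0.45). At the limit for dim genes they were -1.53, -1.76 and -0.94. Without WT Scl- replicate 2 they came to -0.91, -1.10 and -0.66, and the other probe sets of Cbfa2t3 differed by -0.12 to 0.31.

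The E proteins Tcf3 and Tcf12 and the bridging factor Ldb1 hardly differed, with 0.03, -0.01 and 0.03 log units. Tcf4 (E2-2), the third E protein, was higher by 0.49 (SE 0.16), with 0.26 to 0.34 on its other probe sets. Of the Id proteins, which bind E proteins and keep them off DNA, Id1 and Id3 lay on the higher side. Id1 was at 8.51 and 8.84 in SclKO against 7.84 and 7.90 in WT Scl- (0.81, SE 0.19). Id3 was higher by 0.36, without overlap, but WT Scl+ (9.59 and 9.64) was near the SclKO level of 9.65. Id2 was higher by 0.89 on its brightest probe set, with an unadjusted limma p above 0.05 (SE 0.51), and at -0.1 on another. Most of the spread on the brightest came from WT Scl+ (7.23 and 5.51), with SDs of 0.02 in SclKO and 0.03 in WT Scl-. Lmo4 (0.62) and the Ldb1 partner Ssbp2 (0.44) completed the members with p under 0.05. Ssbp2 was at 7.48 and 7.51 in SclKO and at 7.5 and 7.54 in WT Scl+, so it was not high in SclKO alone. Lmo2 overlapped, at 10.32 and 11.37 in SclKO against 9.24 and 11.37 in WT Scl-.

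The promoters of Tal1, its relative Lyl1, Cbfa2t3 and the blood factor Myb are shown because these 4 genes were low together in SclKO and the letters that Scl complexes bind can be looked for in them. Each runs from 250 bases before to 50 after the start in RefSeq (GRCm38.p6), at chr4:115056176-115056475 on the plus strand for Tal1, chr8:84701207-84701506 on the plus strand for Lyl1, chr8:122699060-122699359 on the minus strand for Cbfa2t3 and chr10:21160935-21161234 on the minus strand for Myb. Capitals mark the E-box letters CAGNTG on either strand. They also mark the letters of a GATA site, which are AGATAA, on either strand. No marked stretches overlap in these windows.
Tal1: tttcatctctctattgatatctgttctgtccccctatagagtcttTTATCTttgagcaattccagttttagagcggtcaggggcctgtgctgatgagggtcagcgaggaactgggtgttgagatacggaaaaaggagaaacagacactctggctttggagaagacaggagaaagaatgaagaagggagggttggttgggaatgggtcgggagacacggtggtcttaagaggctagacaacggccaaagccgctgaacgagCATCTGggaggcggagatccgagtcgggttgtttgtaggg
Lyl1: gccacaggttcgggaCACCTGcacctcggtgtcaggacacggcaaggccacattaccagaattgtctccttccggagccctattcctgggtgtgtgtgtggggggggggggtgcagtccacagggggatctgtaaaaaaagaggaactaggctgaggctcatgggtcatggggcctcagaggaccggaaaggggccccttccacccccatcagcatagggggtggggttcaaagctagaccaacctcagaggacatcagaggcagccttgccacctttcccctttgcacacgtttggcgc
Cbfa2t3: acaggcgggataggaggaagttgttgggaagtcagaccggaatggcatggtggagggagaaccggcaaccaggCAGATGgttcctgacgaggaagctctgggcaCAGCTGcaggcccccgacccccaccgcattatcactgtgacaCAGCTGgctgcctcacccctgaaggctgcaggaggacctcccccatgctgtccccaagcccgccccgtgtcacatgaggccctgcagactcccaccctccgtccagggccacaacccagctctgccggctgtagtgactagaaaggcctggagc
Myb: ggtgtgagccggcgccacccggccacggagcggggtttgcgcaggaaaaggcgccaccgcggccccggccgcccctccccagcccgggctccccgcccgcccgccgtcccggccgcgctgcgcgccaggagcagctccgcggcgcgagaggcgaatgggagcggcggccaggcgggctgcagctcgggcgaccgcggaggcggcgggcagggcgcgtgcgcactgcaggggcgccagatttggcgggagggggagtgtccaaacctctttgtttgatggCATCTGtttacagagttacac
The Tal1 window held 1 E-box and 1 GATA match, Cbfa2t3 held 3 E-boxes, and Lyl1 and Myb held 1 E-box each. Tal1 and Cbfa2t3 have 2 windows listed each, and these counts are for the printed one, at the upstream-most start. E-box letters were in 45.3% of the 13172 windows of all tested genes that matched the table, and GATA letters in 6.35%. Among the windows of the Scl complex list the shares were 42.3% and 7.69%. A match is a description of letters and not a bound site.

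Myb and other factors of early blood were low in SclKO on the same pattern, and much of it rested on 1 WT Scl- array. Myb, which is needed for definitive blood, was at 4.10 and 4.48 in SclKO, 4.88 and 7.47 in WT Scl-, and 8.80 and 8.62 in WT Scl+ (-1.89, SE 0.76, or -0.59 without WT Scl- replicate 2). Gfi1b, an erythroid and megakaryocyte repressor, was at 4.27 and 4.00 against 4.76 and 5.33 (-0.91, SE 0.24, or -0.48 at the limit). Gata1, the erythroid master factor, differed by -0.79, or -0.51 at the limit, and Runx1 by -0.72, with -0.69 to -0.05 on its other probe sets. On the brightest probe set of all 4 genes the SclKO arrays lay below both WT Scl- arrays, and the WT Scl+ levels were higher again. On the Runx1 probe set at -0.05 the groups overlapped (5.67 and 5.71 in SclKO, 5.54 and 5.93 in WT Scl-).

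A second set of factors had no settled direction on their brightest probe sets. Fli1 was at 4.92 and 5.05 in SclKO but at 4.64 and 7.28 in WT Scl-. Erg was at 5.29 and 6.13 against 4.88 and 7.58, and Gata2 at 7.06 and 7.04 against 6.59 and 8.42. For these 3 genes, whose products drive both endothelium and blood, the SclKO arrays lay between the WT Scl- arrays. Their differences of -0.98, -0.52 and -0.46 turned to 0.35, 0.83 and 0.46 without WT Scl- replicate 2. Another probe set of each differed by -0.63, -0.89 and -0.57. On those of Erg and Gata2, SclKO replicate 1 (4.93 and 6.28) lay below both WT Scl- arrays.

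Other members of the transcription factor list lay on the higher side. Gata3 was at 7.11 and 6.93 in SclKO against 6.22 and 5.87 in WT Scl- (0.97, SE 0.18). Foxc2 was higher by 0.80, though by 0.20 at the limit, Bcl11a, on chromosome 11, by 0.44, and Cbfb, the partner of Runx1, by 0.35. In WT Scl+, Foxc2 was at 5.05 and 5.89, above both SclKO arrays (4.82 and 4.76). Etv2, the factor that starts the blood and endothelial programme upstream of Scl, was at 11.13 and 11.88 in SclKO against 10.48 and 11.12 in WT Scl- (0.70, SE 0.33). SclKO replicate 1 lay level with WT Scl- replicate 2 and SclKO replicate 2 above it, and WT Scl+ was lower (10.27 and 10.60).

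Over the 38 tested blood and endothelial transcription factors, 15 differences were positive and 23 negative. Limma p was under 0.05 for 4 and 4, beside 3.14% and 2.38% of all genes. Of those on the lower side, Cbfa2t3 and Lyl1 were also counted in the Scl complex list. The median of the 38 was -0.27, and it was -0.53 without WT Scl- replicate 1 and 0.31 without WT Scl- replicate 2. Averaged over the list, the level was 5.93 and 6.18 in SclKO, 5.77 and 6.81 in WT Scl-, and 7.56 and 7.64 in WT Scl+. The SclKO arrays thus sat between the WT Scl- arrays, and below both WT Scl+ arrays.

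**Figure D1:**
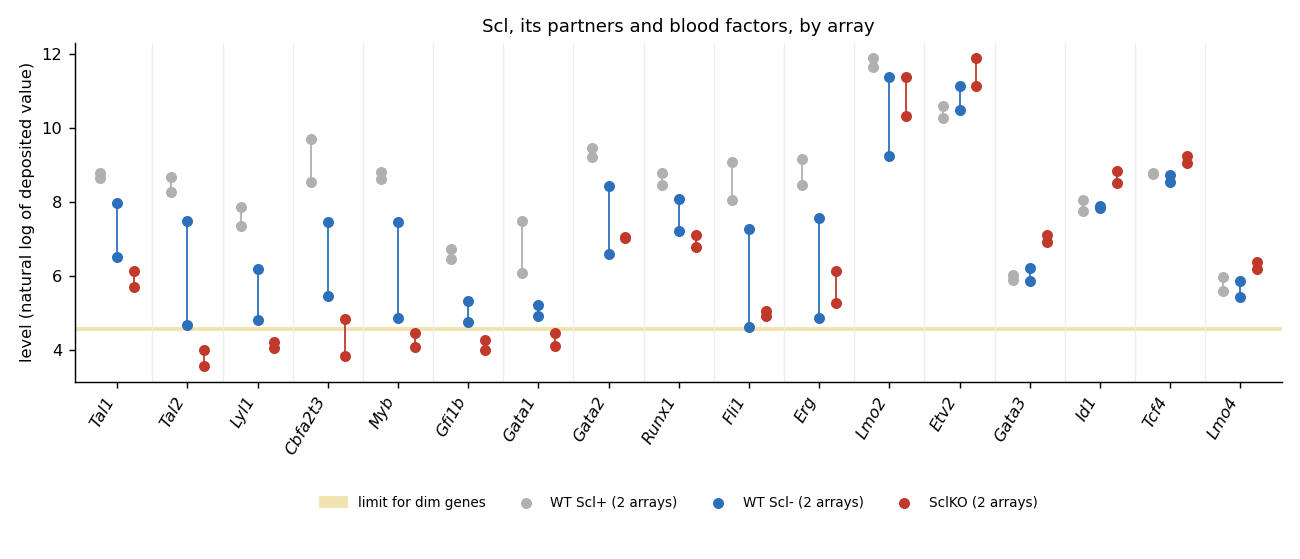
Level (natural log of the deposited value) of Tal1, Scl partners and blood factors on each array, with 1 point per array, a line joining the 2 arrays of a group, and a band at the limit for dim genes. Tal2, Cbfa2t3, Lyl1 and Myb were lowest on both SclKO arrays, and WT Scl- replicate 2 lay towards WT Scl+.

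Endothelial genes did not separate SclKO from WT Scl-. Of 31 tested endothelial markers, 18 differences were positive and 13 negative. Limma p was under 0.05 for 0 of them in either direction, beside 3.14% higher and 2.38% lower of all genes. After adjustment by limma, 0 of them were called. Their median was 0.03, which became -0.49 without WT Scl- replicate 1 and 0.55 without WT Scl- replicate 2. Tek, the angiopoietin receptor, spanned 5.78 to 7.20 in SclKO and 3.94 to 8.24 in WT Scl-. Cdh5, the endothelial cadherin, was at 5.82 and 6.77 against 5.51 and 7.47, and Pecam1 (on chromosome 11) at 4.72 and 5.30 against 4.33 and 6.32. Each pair of SclKO arrays lay inside the WT Scl- range. The list's mean level was 5.91 and 6.41 in SclKO, 5.58 and 6.76 in WT Scl-, and 7.09 and 7.73 in WT Scl+. In bulk samples, fewer cells of a type and less RNA per cell cannot be told apart.

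Of the blood cell markers, the megakaryocyte and early blood surface genes lay mostly on the lower side. Of 14 tested erythroid and globin genes, 0 had a limma p under 0.05 (3.14% higher and 2.38% lower over all genes). Their median was -0.11. Hbb-bh1, an embryonic globin, was at 5.15 and 4.65 in SclKO, 4.99 and 6.55 in WT Scl-, and 8.85 and 8.04 in WT Scl+. Of 11 megakaryocyte and early blood surface genes, 10 were on the negative side, 6 of them without overlap (18.7% over all genes), and 2 had a limma p under 0.05 (2.38% over all genes). These 2 were Spn (-0.37), which encodes the leukocyte surface protein CD43, and Plek (-0.99, or -0.39 at the limit), the platelet protein pleckstrin, which lies on chromosome 11. Itga2b (CD41), an early surface mark of blood, was at 6.03 and 6.84 against 6.86 and 7.33, also on chromosome 11. Among 15 macrophage and leukocyte markers, only Ctsc had a limma p under 0.05, beside 3.14% higher and 2.38% lower of all genes. Ctsc, a lysosomal protease also made outside the blood, had a difference of 0.66.

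Most genes of the primitive streak list had a positive difference. The list of streak and mesendoderm genes had 24 tested members, 19 positive and 5 negative, with limma p under 0.05 for 3 and 1, beside 3.14% and 2.38% of all genes. Its median was 0.31, and 0.05 without WT Scl- replicate 2. Gsc, a homeobox gene of the anterior streak, was at 7.67 and 8.05 in SclKO, 6.53 and 6.49 in WT Scl-, and 5.82 and 4.57 in WT Scl+ (1.35, SE 0.40). Nodal, the ligand, was at 7.84 and 7.79 against 7.0 and 6.97 (0.83, SE 0.32), while a dimmer probe set of the gene differed by -0.08. Foxa2, a factor of the anterior streak and endoderm, was higher by 0.74 (SE 0.23). The SclKO arrays lay above both WT Scl- arrays for each of these 3 genes.

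The Nodal inhibitors Lefty2 and Cer1 had positive differences too, with an unadjusted limma p above 0.05. Lefty2 was at 9.20 and 9.23 in SclKO against 8.58 and 7.79 in WT Scl- (1.03). Cer1 was at 6.44 on both SclKO arrays against 5.76 and 4.75 (1.18). The Nodal co-receptor Tdgf1 (Cripto) was bright everywhere, at 12.57 and 12.56 against 12.50 and 12.20 (0.22). Fgf4, the streak member with an unadjusted limma p under 0.05 on the lower side, differed by -0.49 (SE 0.16), and by -0.59 to 0.03 on its other probe sets.

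3 feedback genes of FGF signalling were higher in SclKO, and its ligands differed in either direction. Spry4, a Sprouty inhibitor that FGF signalling induces, was at 7.62 and 7.79 in SclKO, 6.23 and 6.52 in WT Scl-, and 6.63 and 6.08 in WT Scl+ (1.33, SE 0.23). Dusp6, the phosphatase that switches off ERK, was at 10.08 and 10.34 against 9.27 and 9.05 (1.05, SE 0.22). Dusp4, a related phosphatase, was at 9.40 and 9.56 against 8.6 and 8.67 (0.84, SE 0.19). These 3 held their size when either WT Scl- array was left out, at 1.19 and 1.48, 1.16 and 0.94, and 0.81 and 0.88. Other readouts of the pathway were nearer to 0: Etv5 was higher by 0.53, Spry2 by 0.28, Etv4 by 0.17 and Spry1 by 0.06, none with a limma p under 0.05. Of the ligands, Fgf5 was higher by 1.96 (9.23 and 8.91 against 7.88 and 6.34, with 0.36 on another probe set), Fgf8 by 0.29, and Fgf4 was the only member with p under 0.05 on the lower side. The 21 tested FGF pathway genes had a median of 0.21, which was 0.01 without WT Scl- replicate 2, with 15 positive and 6 negative.

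Several genes of pluripotent and early epiblast cells were also higher in SclKO than in WT Scl-. Pou5f1 (Oct4), the central pluripotency factor, was at 10.01 and 10.09 in SclKO, 9.0 and 8.92 in WT Scl-, and 9.26 and 7.79 in WT Scl+ (1.09, SE 0.44). Dppa5a was at 9.92 and 10.14 against 8.71 and 8.88 (1.24, SE 0.34). Dppa2 was at 7.06 and 7.32 against 3.95 and 6.20, so its difference of 2.12 came to 0.99 without WT Scl- replicate 1. In WT Scl+ Dppa2 was at 6.41 and 7.31, so it was not high in SclKO alone. L1td1 (0.86) and the DNA methyltransferase Dnmt3b (0.55) were the other members with limma p under 0.05 on the higher side. L1td1 was at 8.37 and 8.62 in SclKO and 8.16 and 7.24 in WT Scl+. Dnmt3b was at 10.24 and 10.29 in SclKO and 10.17 and 9.71 in WT Scl+, so WT Scl+ replicate 1 came near SclKO for both.

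The group did not act as a unit. Prdm14 was lower, at 4.99 and 4.29 against 5.69 and 6.22 (-1.32, SE 0.49), and at 4.77 and 3.35 in WT Scl+. Nanog was level and overlapping, at 8.20 and 7.48 against 8.20 and 7.37. Sox2 was dim, at 5.78 and 5.08 in SclKO with both WT Scl- arrays under the limit (1.90, or 0.85 at the limit). The WT Scl+ arrays for Sox2 were far apart, at 5.83 and 2.86. Zfp42 (Rex1) was higher by 0.80 and Otx2, a factor of primed epiblast, by 0.81, neither with p under 0.05. Of the 22 tested members, 15 were positive and 7 negative, and the median was 0.22. Limma p was under 0.05 for 5 and 1, beside 3.14% and 2.38% of all genes.

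**Figure D2:**
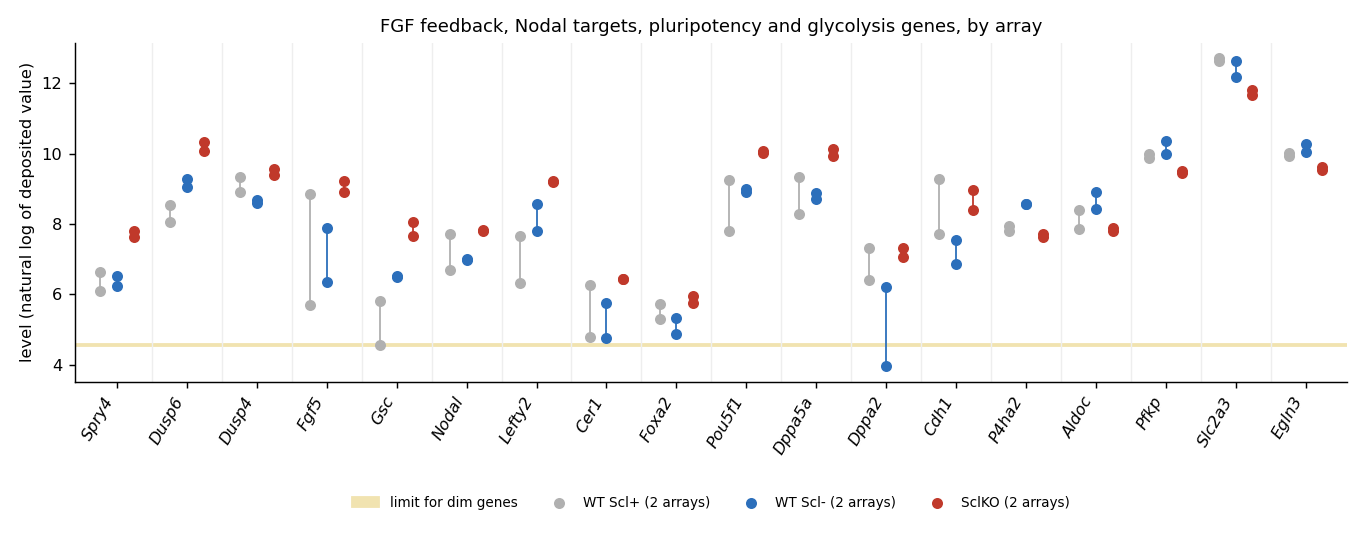
Level (natural log of the deposited value) of FGF feedback, Nodal, pluripotency and glycolysis genes on each array, with 1 point per array and a line joining the 2 arrays of a group. For Spry4, Dusp6, Dusp4, Gsc, Nodal and Pou5f1 both SclKO arrays lay above both WT Scl- arrays, and for P4ha2, Aldoc, Pfkp, Slc2a3 and Egln3 both lay below.

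Heart factors differed in both directions. Of 21 tested cardiac transcription factors, 10 differences were positive and 11 negative, 5 lay higher and 4 lower without overlap (22.9% and 18.7% over all genes), and the median was -0.03. Gata6, a factor of heart and endoderm, was at 9.11 and 9.41 in SclKO against 8.68 and 8.81 in WT Scl- (0.52, SE 0.17). Hey2, a Notch target of heart and arteries, was at 6.02 and 5.89 against 6.61 and 7.36 (-1.03, SE 0.32). Gata4 differed by 0.30, Isl1 by -0.11, Hand2 by -0.44, Tbx5 by 0.24, Nkx2-5 by 0.21 and Myocd (on chromosome 11) by -0.35, none with p under 0.05.

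Contractile genes also went both ways, with 12 positive and 13 negative. The 25 tested members had a median of -0.03. Limma p was under 0.05 for 0 on the higher side (3.14% of all genes) and 2 on the lower (2.38%). These were Myl4, an atrial myosin light chain on chromosome 11, at 6.89 and 6.55 against 7.88 and 7.47 (-0.95), and Ankrd1 (-0.50, near the limit for dim genes). Tnnt2, the cardiac troponin, was at 7.43 and 6.49 against 6.75 and 6.80 and overlapped. Myl7, also on chromosome 11, differed by -0.25.

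Genes of glycolysis and the response to low oxygen were mostly lower in SclKO. Of 26 tested members, 20 were negative and 6 positive, beside 46% and 54% of all genes. Limma p was under 0.05 for 5 and 0, beside 2.38% and 3.14% of all genes. The median was -0.27, or -0.07 without WT Scl- replicate 2. The list's mean level was 9.89 and 9.97 in SclKO, 10.06 and 10.36 in WT Scl-, and 10.14 and 10.11 in WT Scl+. P4ha2, a collagen prolyl hydroxylase, was at 7.62 and 7.72 in SclKO against 8.56 and 8.57 in WT Scl- (-0.90, SE 0.14). In WT Scl+ it was at 7.79 and 7.93, near the SclKO arrays. Aldoc, an aldolase, differed by -0.82, and both genes lie on chromosome 11. Off that chromosome, Pfkp, a phosphofructokinase, was at 9.52 and 9.46 against 10.00 and 10.37 (-0.69, SE 0.18). The glucose transporter Slc2a3 differed by -0.67 (SE 0.19) and Egln3, an oxygen sensor induced by low oxygen, by -0.58 (SE 0.15). Other members were level or closer: Ldha was at 12.84 and 12.87 against 12.88 and 12.79, and Slc2a1 (-0.35) and the low-oxygen marker Car9 (-0.35, dim) missed p of 0.05.

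**Figure D3:**
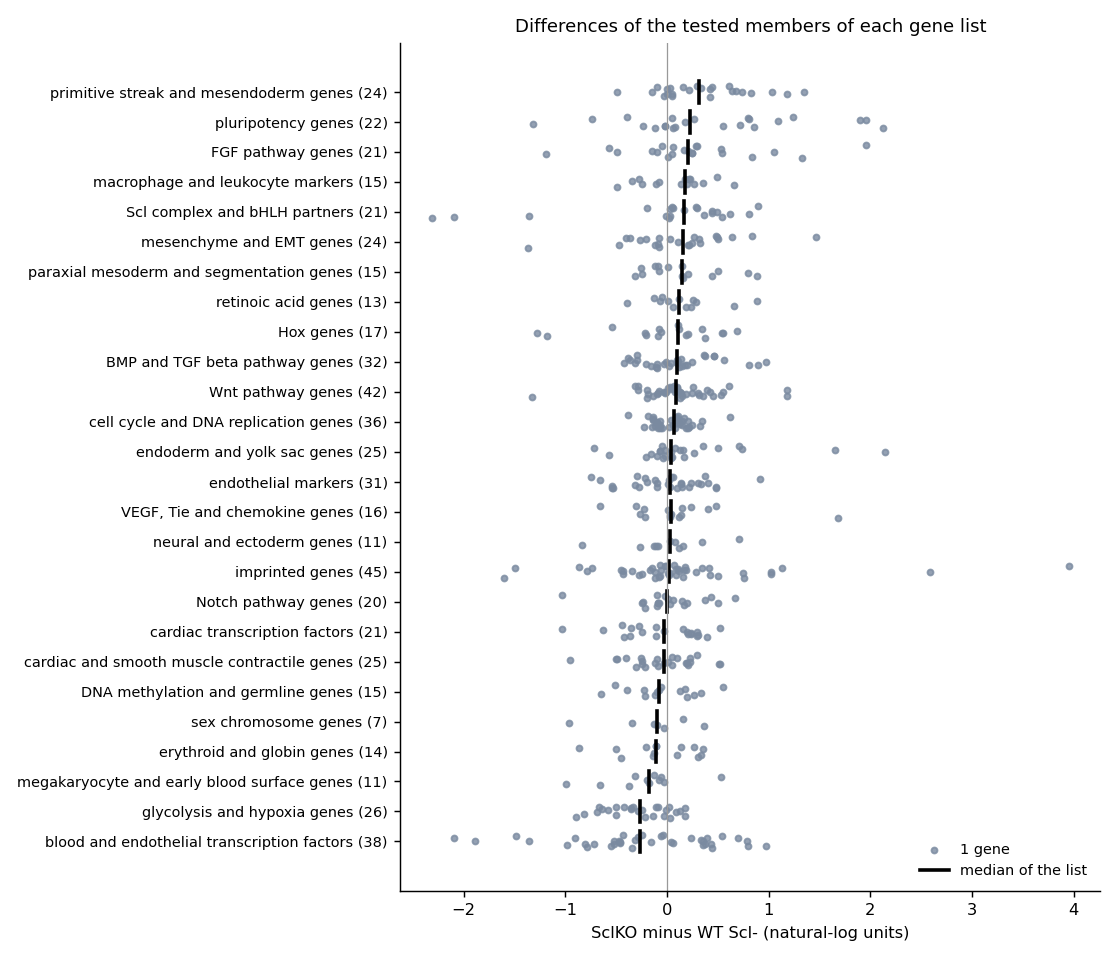
Difference between SclKO and WT Scl- (log units) of every tested member of each gene list, with 1 point per gene and the list's median marked. The medians of the glycolysis list and of the blood and endothelial factors were both -0.27 and that of the streak genes 0.31, against 0.02 over all genes tested.

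The only called gene was an imprinted one, Cdkn1c, and the 2 next lowest p-values were those of the imprinted genes Igf2 and Meg3. Imprinted genes are expressed from the copy of 1 parent only, set by DNA methylation laid down in the germ line. Neighbouring imprinted genes often answer to a shared control region, so that a non-coding RNA from 1 parental copy goes with silence of the coding genes on it. Arrays do not tell the parental copies apart, so only total levels are given.

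Cdkn1c, which encodes the cell cycle inhibitor p57 and is expressed from the maternal copy, was at 7.80 and 7.31 in SclKO. It was under the limit for dim genes on all 4 WT arrays, at 3.56 and 3.64 in WT Scl- and 3.69 and 3.62 in WT Scl+. The difference was 3.95 log units (SE 0.20, limma adjusted p = 0.00971) as measured, and 2.97 at the limit, which is at least 7.85-fold or 19.5-fold for this probe set. Without any 1 of the 6 arrays the difference stayed between 3.71 and 4.2, but the adjusted p was between 0.0509 and 0.223, so the call needs all 6 arrays.

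Igf2, the paternally expressed growth factor that lies in a neighbouring imprinted cluster on chromosome 7, was at 11.49 and 11.03 in SclKO, 8.59 and 8.75 in WT Scl-, and 8.92 and 8.95 in WT Scl+. The difference was 2.59 (SE 0.19, limma adjusted p = 0.0565), or 6.01-fold and 13.3-fold, just short of a call, and its other probe set gave 2.77. Both SclKO arrays lay more than 2 log units above all 4 WT arrays. Igf2r, the maternally expressed receptor that clears Igf2 protein, was at 8.50 and 8.53 against 7.56 and 7.21 (1.13, SE 0.24), with 1.11 on another probe set.

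The maternally expressed non-coding RNAs of the Dlk1-Meg3 region on chromosome 12 were lower. Meg3 was at 9.55 and 9.68 in SclKO, 11.03 and 11.19 in WT Scl-, and 11.12 and 11.07 in WT Scl+ (-1.5, SE 0.15, limma adjusted p = 0.214). All 10 of its other probe sets lay on the lower side as well, at -1.97 to -0.6. Rian was at 8.87 and 9.39 against 10.65 and 10.82 (-1.60, SE 0.24), and its others differed by -1.74 to -0.89. Mirg, further along the same region, differed by -0.28 on its brightest probe set and by -1.21 on another. Dlk1, the paternally expressed protein-coding gene there, was near the limit and differed by -0.08. On a dimmer probe set it was at 5.82 and 5.50 in SclKO against 3.85 and 4.60 in WT Scl- (1.44).

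The promoters of Meg3 and Rian are printed because their RNAs were low together on both SclKO arrays. They lie at chr12:109540746-109541045 and chr12:109603695-109603994 (GRCm38.p6, RefSeq, plus strand), with capitals as above.
Meg3: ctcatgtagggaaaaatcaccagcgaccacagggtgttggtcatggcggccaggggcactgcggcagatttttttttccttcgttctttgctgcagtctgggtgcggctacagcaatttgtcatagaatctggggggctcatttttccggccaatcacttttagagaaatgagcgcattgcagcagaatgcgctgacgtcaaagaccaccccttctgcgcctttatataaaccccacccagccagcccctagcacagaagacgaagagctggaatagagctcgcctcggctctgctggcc
Rian: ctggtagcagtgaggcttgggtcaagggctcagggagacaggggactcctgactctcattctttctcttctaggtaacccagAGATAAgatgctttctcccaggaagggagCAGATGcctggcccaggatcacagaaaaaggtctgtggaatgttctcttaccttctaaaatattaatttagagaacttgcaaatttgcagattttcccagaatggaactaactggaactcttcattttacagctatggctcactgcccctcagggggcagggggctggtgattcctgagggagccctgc
The Meg3 window held 13 CG pairs and no match to either motif, while the Rian window held 0 CG pairs, 1 E-box and 1 GATA match. Meg3 has 2 windows listed, and the one at the upstream-most start is printed. The median window of tested genes held 20 CG pairs, and that of the imprinted list 15. DNA methylation was not measured.

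In 2 imprinted clusters the non-coding RNA and its neighbours differed in opposite directions. Kcnq1ot1, the paternally expressed RNA of the Cdkn1c cluster, was at 8.03 and 7.94 in SclKO against 8.96 and 8.59 in WT Scl- (-0.79, SE 0.19), with -0.91 to -0.18 on its other probe sets. In the same cluster Phlda2, which restrains placental growth, was higher by 1.02 (SE 0.37) and Tssc4 by 0.41 (SE 0.14), while Kcnq1 itself was at -0.02. Airn, the paternally expressed antisense RNA of the Igf2r cluster on chromosome 17, differed by -0.43 (SE 0.17), and by -1.04 to -0.12 on other probe sets. Igf2r was higher there, as given above.

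Other imprinted genes went either way. H13 was higher by 1.02 on its brightest probe set, but its others gave -0.13 to 0.28. Gab1 was higher by 0.76 and Zdbf2 by 0.50. Gab1 was at 8.83 and 8.73 in SclKO but also at 8.62 and 9.16 in WT Scl+, so it was not high in SclKO alone. Sgce differed by -0.87, Mest by -0.74 and Sfmbt2 by -0.45, the last with -1.24 on another probe set. Peg3, among the brightest of the list, was at 13.04 and 12.88 against 13.02 and 12.85. Of 45 tested imprinted genes, 24 were positive and 21 negative with a median of 0.02, and limma p was under 0.05 for 8 and 7, beside 3.14% and 2.38% of all genes.

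**Figure D4:**
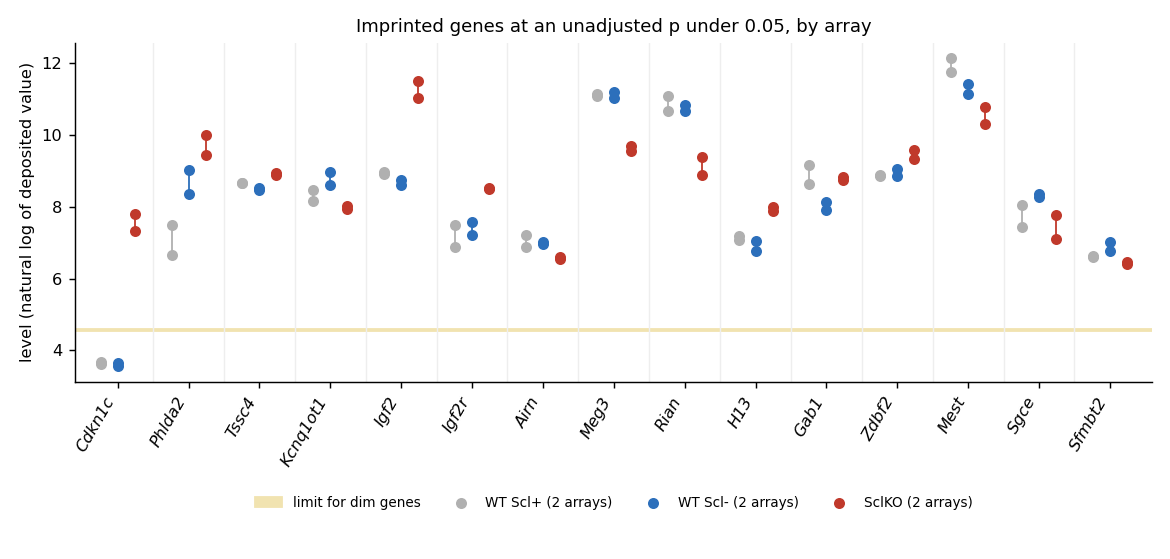
Level (natural log of the deposited value) of imprinted genes on each array, with 1 point per array, a line joining the 2 arrays of a group and a band at the limit for dim genes. Cdkn1c and Igf2 were high on both SclKO arrays and close together on the 4 WT arrays, and Meg3 and Rian were low on both SclKO arrays.

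Genes on chromosome 11 were lower in SclKO by a small amount along its whole length. The median difference of its 1119 tested genes was -0.154 log units, and 74.6% of them were negative. The 18 other autosomes had medians between 0.012 and 0.06 and the X chromosome 0.008, with 38.9% to 47.9% of autosomal genes negative. Each of the 4 pairs of a SclKO and a WT Scl- array gave nearly the same median on chromosome 11, between -0.169 and -0.14. Split into 10 stretches by gene order, all of them were low, from -0.191 to -0.098. Against WT Scl+ the median was -0.146, whereas WT Scl+ and WT Scl-, which share a line, differed there by -0.01.

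Chromosome 11 held 8.66% of the tested genes but 32.5% of those lower at an unadjusted p under 0.05, 100 of 308, and 12 of the 406 higher. Outside it, 208 of 11804 genes were lower (1.76%) and 394 higher (3.34%). Several genes named here as lower lie on it, among them P4ha2, Aldoc, Myl4, Plek, Hoxb4 and Sparc, and their differences stand beside that chromosome median of -0.154. The arrays measured RNA and not the DNA of the lines.

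**Figure D5:**
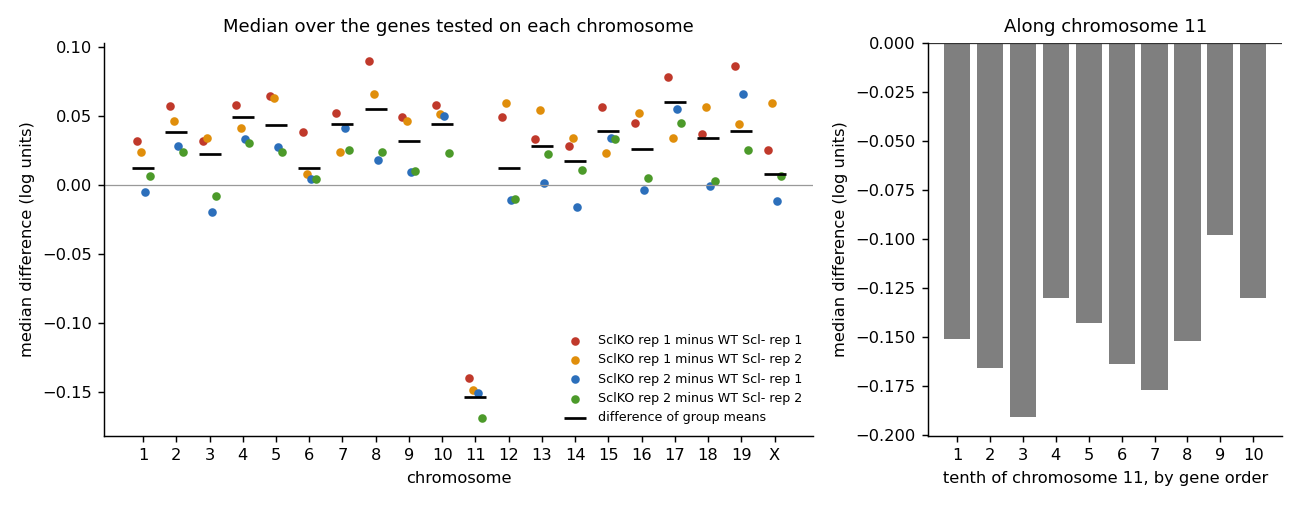
Median difference between SclKO and WT Scl- (log units) of the tested genes on each chromosome. Chromosome 11 lay at -0.154, and the other autosomes between 0.012 and 0.06.

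The genes with the largest differences came from mixed families. Beside Cdkn1c, Igf2 and Spry4, the 15 largest positive differences at a limma p under 0.01 without overlap held Cyp4x1, a cytochrome P450 (3.00, or 0.85 at the limit), Tac1, the precursor of substance P (2.38), Spink1, a protease inhibitor (2.14), Col4a6, a basement membrane collagen chain (1.90, or 1.08 at the limit), Tgfbi, an extracellular matrix protein (1.89), and Spsb4 (1.80). Spink1 was at 7.67 and 7.83 in SclKO and 5.47 and 5.75 in WT Scl-, but also at 8.43 and 7.13 in WT Scl+, so it was not high in SclKO alone. Tgfbi was at 7.02 and 7.10 against 4.66 and 5.68 in WT Scl- and 5.07 and 4.23 in WT Scl+. Trap1a (1.76), Asxl3 (1.58, with 0.16 on another probe set), Nfkbie (1.57, or 0.37 at the limit), the homeobox gene Vax1 (1.47), the tyrosine kinase gene Src (1.25, with 0.08 on another probe set) and the RNA-binding protein gene Rbm47 (1.13) made up the rest. Trap1a was at 6.39 and 6.44 in SclKO but also at 6.53 and 5.67 in WT Scl+. Nfkbie was at 5.03 and 4.89 in SclKO and at 4.75 and 5.87 in WT Scl+, so neither was high in SclKO alone.

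The 15 largest negative differences under the same rule included 5 genes on chromosome 11, against 0 of the 15 positive ones. Those 5 were B4galnt2, a glycosyltransferase (-1.31, with -0.97 to -0.18 on other probe sets), Hoxb4, Ifi35, Plek and Cpeb4 (-0.93, with -0.3 on another probe set). Hoxb4 differed by -1.28, but by -0.06 on another probe set, and Ifi35 by -1.04, with -0.76 to -0.71 on its others. Mfap3l was at 3.80 and 3.46 in SclKO against 5.87 and 5.73 in WT Scl- (-2.17, or -1.24 at the limit), and at 4.99 and 3.82 in WT Scl+. Gm6958 was at 10.64 and 10.10 in SclKO and 11.82 to 12.16 on the 4 WT arrays (-1.68, SE 0.23), and another of its probe sets differed by -3.98. Lgr5, a receptor for R-spondins in Wnt signalling, was at 4.87 and 4.53 against 5.50 and 6.55 in WT Scl- and 7.55 and 7.45 in WT Scl+ (-1.33). Morc4 (-1.38), Clmn (-1.14, with -0.24 to 0.12 on its other probe sets), Srp54b (-1.12), Pfkfb3, which drives glycolysis through fructose bisphosphate (-1.08), and Flrt1 (-1.02, with -0.02 on another probe set) completed them beside Meg3 and Rian. E-box letters were in 26.7% of 15 promoter windows of the positive genes and 41.2% of 17 of the negative ones, against 45.3% over all.

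Among the remaining lists, single members stood out. Of 24 mesenchyme genes, Cdh1, the epithelial cadherin, was at 8.40 and 8.97 in SclKO against 7.55 and 6.87 in WT Scl- (1.47). In WT Scl+ Cdh1 was at 9.29 and 7.71, so it was not high in SclKO alone. Twist1, a mesenchymal factor, was higher by 0.84 (SE 0.17). Col1a1, on chromosome 11, differed by -1.37 with a wide spread within groups. The 25 endoderm and yolk sac genes had a median of 0.04. Cldn6, a tight junction protein, was higher by 1.65, Apoa1 by 0.71 and Lama1 by 0.50, while Sparc, on chromosome 11, differed by -0.57. In WT Scl+, Cldn6 was at 8.99 and 6.7 (SclKO 8.28 and 8.35) and Apoa1 at 6.48 and 5.68 (SclKO 6.14 and 6.28). The 11 neural and ectoderm genes had a median of 0.03, with Tfap2a at -0.84, or -0.31 at the limit.

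Signalling and patterning lists had single members to name. In the Wnt list of 42 genes, Fzd2, a receptor on chromosome 11, was higher by 0.55 on its brightest probe set but at -0.25 on both others, and the inhibitor Frzb was higher by 1.18. Of 13 retinoic acid genes, Cyp26a1, which breaks retinoic acid down, was higher by 0.88 (SE 0.32) and Rdh10, which helps make it, by 0.66 (SE 0.20), though another Rdh10 probe set gave -0.49. Of 15 paraxial mesoderm genes 4 had limma p under 0.05 on the higher side, beside 3.14% of all genes, and 0 on the lower. These were Cyp26a1, Foxc2 (0.20 at the limit), Dll3, a Notch ligand (0.50), and Eya1 (0.44). Hoxb5, a neighbour of Hoxb4, was at 4.62 and 3.99 against 4.74 and 6.22 (-1.18). The 36 cell cycle and replication genes had a median of 0.07. Limma p was under 0.05 for 0 of them, beside 3.14% higher and 2.38% lower of all genes.

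The Y-linked genes Eif2s3y, Uty and Zfy2 differed by -0.13, 0.16 and -0.03, and Eif2s3y was between 9.22 and 9.46 on every array. Kdm5d, also Y-linked, was at 6.42 and 6.93 in SclKO against 7.53 and 7.73 in WT Scl- (-0.96, SE 0.34). Xist was near the limit for dim genes throughout and differed by 0.36.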

How the data were processed

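RNA of 6 samples was measured on 6 Affymetrix arrays, in 3 groups of 2 taken from the sample titles. Per the submitters' processing notes, RMA, affy and limma were used, in versions not given. The deposited signal values are unlogged, with no unit or base stated. They ran from 3.256 to 2822995, and on each array 1040 to 1153 probe sets exceeded the largest 16-bit value, 65535. Natural logs were taken. No per-sample column was left unused (0).

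A platform annotation gave 1 symbol for 34958 of 45101 probe sets, several for 932 and none for 9211, and 64 were controls. Symbols were updated by Entrez identifier for 34754. Chromosomes and promoters came from RefSeq tables (GRCm38.p6), with promoters for 10379 of the 12923 tested genes. Group means were fitted to all 6 arrays in limma 3.58.1 (R 4.3.3; two-sided eBayes, residual degrees of freedom 3, prior 3.15), with Benjamini-Hochberg adjustment over all tested genes. The fit was checked on simulated data. The design had assumed log values; the natural log was taken first and the test kept.

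Members and gene lists were chosen with earlier results of these data known. Named genes were core genes, called genes, the 15 largest positive and negative differences (unadjusted p under 0.01, no overlap, brighter group above the limit), and up to 6 members per list at p under 0.05 or without overlap past 1 log unit. Named after their values were seen were further imprinted genes, the E proteins and their partners Ldb1, Ssbp2 and Id2, Bcl11a, Cbfb, Tdgf1, Otx2, Zfp42, further FGF and glycolysis genes, and the Y-linked genes. Alternatives were the replicate block, the 4 arrays alone, other filters, probe set choices and normalizations, values at the limit, a trended robust fit and each array left out.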

Additional observations from a re-analysis of the deposited data

How the results depend on the processing

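Cdkn1c was called under every alternative that kept all 6 arrays (limma adjusted p between 0.00375 and 0.0445), but not in a fit of only the 4 arrays compared (0 genes called) or without any 1 array (0 in each case, adjusted p between 0.0509 and 0.223). The number of genes called was 2 with the filter at the 60th percentile, with all probe sets and with dim values set to the limit, 3 with a trended and robust fit, and 4 with the mean of a gene's probe sets. Igf2 joined at the 60th percentile (adjusted p = 0.0433), with dim values at the limit (0.0493), in the trended fit (0.00541) and with the mean of probe sets (0.0212). Meg3 joined in the last 2 (0.00886 and 0.0469), and Gm6958 joined with all probe sets and with their mean (differences of -3.98 and -2.83).

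Counts at an unadjusted p under 0.05 were 689 higher and 535 lower with only the 4 arrays and 695 and 582 with all probe sets. Counts past 1 log unit were 115 and 101 with all probe sets and 44 higher with their mean. Without 1 array the unadjusted counts ran from 226 to 689 higher and 129 to 535 lower, and those past 1 log unit from 69 to 131 and from 38 to 130. The median of chromosome 11 was -0.123 with no filter and -0.178 at the 60th percentile. The median of the cardiac factors was 0.10 and -0.18 under those filters, and that of the imprinted genes -0.12 with all probe sets. Without 1 array, medians ran from -0.53 to 0.31 for blood and endothelial factors, -0.49 to 0.55 for endothelial markers, 0.05 to 0.44 for streak genes, -0.11 to 0.16 for cardiac factors and -0.02 to 0.10 for imprinted genes. The cause was not tested.

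Of 149 named genes, 125 kept their direction under all 16 alternatives. Many of the 16 leave a gene's difference between SclKO and WT Scl- unchanged, so they could not test its direction. These were the replicate block, the fit of only the arrays compared, the other filters and the trended robust fit. The same holds for all probe sets, where the same probe set was read, and for leaving out either WT Scl+ array. Cdh5 (0.20) and Dlk1 (0.68) turned with the mean of probe sets and Tcf12 (0.01) with arrays centred on their median. Without 1 array, differences crossed 0 for Cdh5 (-1.18 to 0.79), Erg (-1.87 to 0.83), Etv4 (-0.01 to 0.35), Fli1 (-2.30 to 0.35), Gata2 (-1.37 to 0.46), Hand2 (-1.03 to 0.16), Isl1 (-0.54 to 0.31), Kcnq1 (-0.23 to 0.18), Ldb1 (-0.02 to 0.09), Ldha (-0.02 to 0.06), Lmo2 (-0.53 to 1.61), Mesp1 (-0.32 to 0.26), Myl7 (-0.65 to 0.14), Nanog (-0.36 to 0.47), Pecam1 (-1.31 to 0.68), Peg3 (-0.06 to 0.10), Spry1 (-0.08 to 0.19), Tcf12 (-0.09 to 0.07), Tcf3 (-0.03 to 0.08), Tek (-1.75 to 2.55), Tnnt2 (-0.28 to 0.66), Uty (-0.11 to 0.42) and Zfy2 (-0.36 to 0.29).

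With the replicate number as a block, 1 gene was called (Cdkn1c, limma adjusted p = 0.036), 542 genes were higher and 410 lower at an unadjusted p under 0.05, and Tal1 differed by -1.32 (adjusted p = 0.631). Deviations of same-numbered arrays correlated at 0.25, but the comparison holds only 2 pairs and the labels name no shared source, so whether the numbers pair the arrays was not settled. With 2 arrays a group, no array could be tested as an outlier. Signal under the limit for dim genes gives no exact level.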
